A study of Mus musculus with 9 samples.

Results

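G9Gl mouse embryonic fibroblasts (MEFs), which lack the H3K9 lysine methyltransferases (KMT) G9a and Glp, were compared directly with S1S2 MEFs, which lack Suv39h1 and Suv39h2. G9a and Glp are encoded by Ehmt2 and Ehmt1. The members are the libraries labelled with either mutant genotype, 6 of the 9 total RNA libraries of the series, 3 per genotype. The other 3 libraries come from the WT parent and are used to say on which side of WT a mutant lies. Per the study's methods, the parent is an Eset1-conditional MEF clone, so WT cells and both mutants carry the same conditional allele. Each mutant is a single clone made from it with CRISPR/Cas9 and chosen for the absence of both target proteins on western blots. The 3 libraries of a mutant are therefore taken as cultures of 1 clone, p-values measure the spread between such cultures, and genotype and clone cannot be told apart.

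Methylation of lysine 9 on histone H3 marks silent chromatin. Suv39h1 and Suv39h2 add the trimethyl mark, mostly at repeat-rich heterochromatin around centromeres, where HP1 proteins bind it. G9a and Glp act as a heterodimer and add the mono- and dimethyl marks over gene-rich chromatin, where they are known for repressing germline and tissue-specific genes. Both pairs also help to silence repeats, and RNA or DNA copies made from repeats can be detected by innate immune sensors. The direct comparison asks which genes and gene families separate cells that have lost one or the other pair.

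Expression is given as counts per 1000000 (CPM) after TMM scaling. A gene was called when its p from the quasi-likelihood test of edgeR, adjusted by the Benjamini-Hochberg method, was no more than 0.01 and its levels differed by 2-fold or more. Rose and higher mean higher in G9Gl than in S1S2, and fell and lower the opposite. The 6 mutant libraries held between 21319778 and 30808254 counts, so that a floor of 3 counts corresponds to at most 0.141 CPM. Where every library of a mutant was at or under that floor, the difference is a lower bound. A gene at the floor in a mutant and in WT could pass the filter on low counts only through the other mutant. Its direction was thus fixed by that filter. In bulk RNA, fewer cells of a type and less RNA per cell cannot be told apart. For most called interferon-induced effectors, MHC class I genes and serine and stress genes described below, G9Gl replicate 1 and S1S2 replicate 3 were the highest libraries of their genotype, and counts for these lists are also given without each of them.

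Of 15540 genes tested, 2028 (13.1%) were called between the mutants, 1238 (7.97%) higher and 790 (5.08%) lower in G9Gl. The counts of list members below are to be read beside these shares. Without the fold limit, 21.6% of the genes were higher and 21.1% lower under the p limit alone. Differences of at least 8-fold made up 525 of the rises and 258 of the falls. The libraries of the mutants did not overlap for 60.8% of the genes tested, and for each called gene they did not overlap. Among protein-coding genes 13.6% were called, among long intergenic non-coding RNAs 24.6%, and among processed pseudogenes 5.47%.

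Of 390 genes examined by name, 219 overlap another annotated gene, and how the counting treated strand is not given in the sources used here. Reads of Suv39h2 and Dclre1c, Crmp1 and Evc, Aim2 and Cadm3, Cxcl10 or Cxcl11 and Art3, Irf9 and Rnf31, and Timp3 and Syn3 may therefore not be told apart.

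WT lay between the mutants for 767 of the 1238 rises and 537 of the 790 falls. Under the p limit alone, 299 rises and 210 falls had the mutants on opposite sides of WT. WT was below both mutants for 331 rises and 132 falls, and above both for 140 rises and 121 falls. For 298 rises S1S2 was at or under the floor in its 3 libraries, and for 153 falls G9Gl was.

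**Figure D1:**
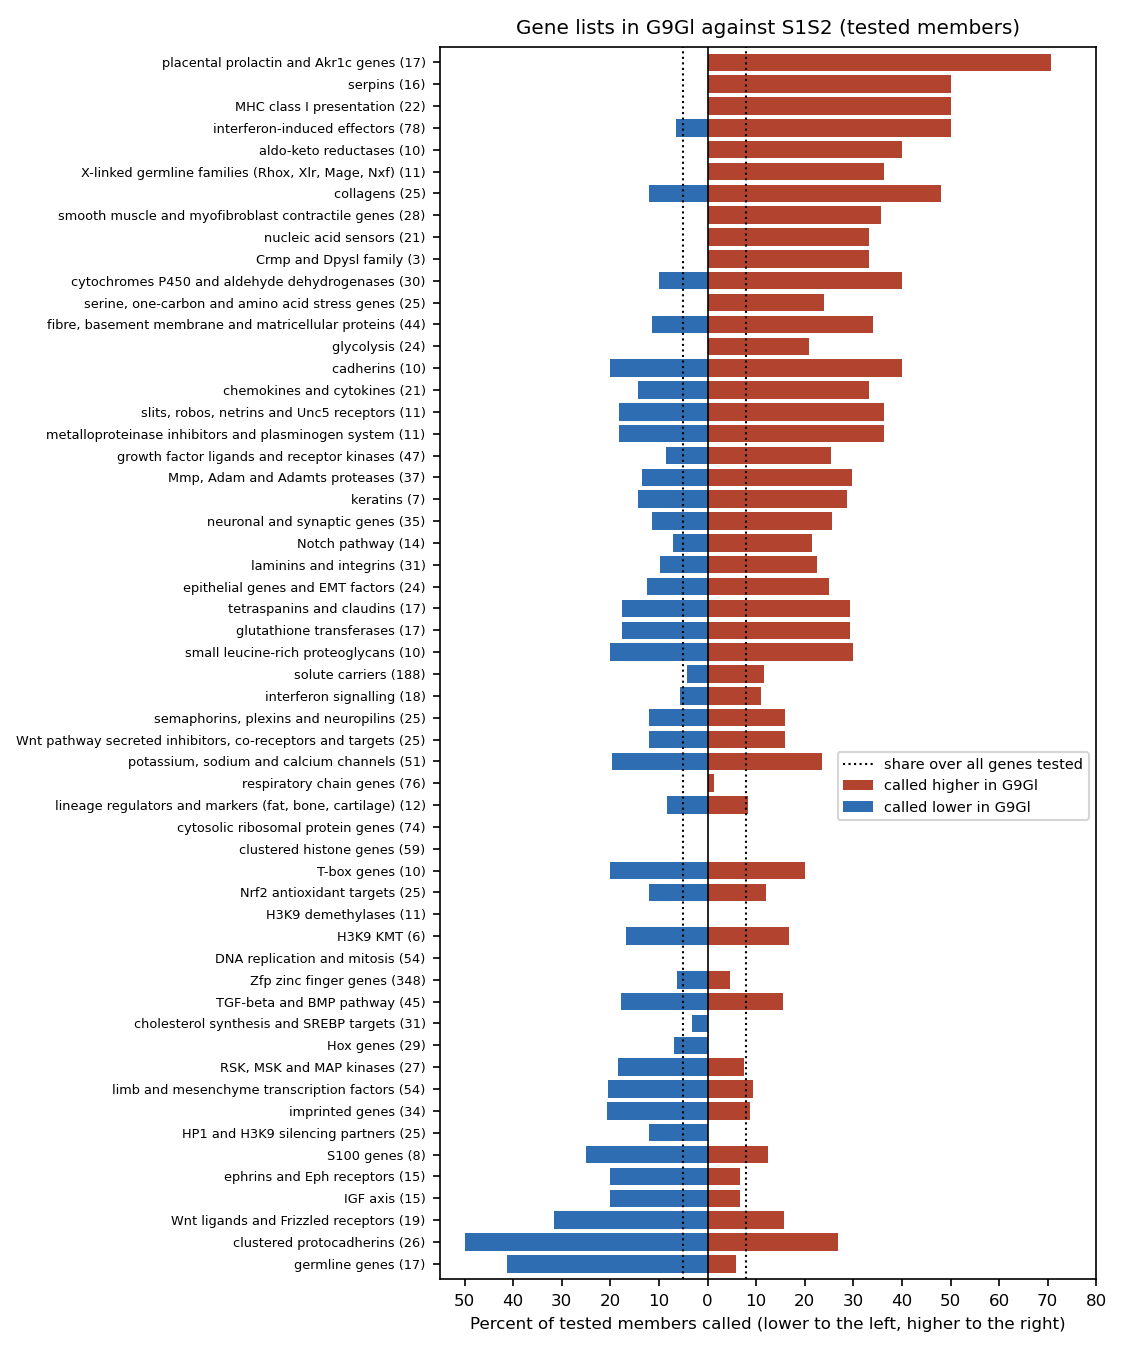
Share of the tested members of 56 gene lists that were called higher (right, red) or lower (left, blue) in G9Gl than in S1S2, in percent, with the number of tested members in parentheses. Dotted lines mark the shares over all genes tested, 7.97% and 5.08%, and serpin, MHC class I and interferon-induced genes lie far to the right while germline genes lie mostly to the left. The list at the top joins prolactin and Akr1c genes with other aldo-keto reductases.

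The targeted genes were examined first. Ehmt2 (chromosome 17, 34898469 to 34914052, GRCm38) was measured at 57.4, 53.5 and 51.9 CPM in G9Gl and 165, 168 and 161 CPM in S1S2, a fall of more than the replicate spread (log2 fold change -1.60 with SE 0.0464, adjusted p = 1.43e-13). Ehmt1 (chromosome 2, 24789928 to 24919614) was at 51.8, 50.3 and 48.6 CPM in G9Gl and 90.2, 89.8 and 87.5 CPM in S1S2, a difference short of the fold limit (log2 fold change -0.83 with SE 0.0301, adjusted p = 4.70e-11). Both genes were lowest in the 3 G9Gl libraries, with WT at 125 ± 9.63 and 104 ± 1.78 CPM. Suv39h1 (chromosome X, 8061171 to 8074760) was at 101, 101 and 107 CPM in G9Gl and 43.1, 44.2 and 38.3 CPM in S1S2 (log2 fold change 1.30 with SE 0.0686, adjusted p = 2.35e-12), lowest in S1S2. Suv39h2 (chromosome 2, 3455815 to 3475031) had 27.2, 28.4 and 31.5 CPM in G9Gl and 57.4, 55.5 and 52.7 CPM in S1S2, with WT at 33.9 ± 0.670 (mean ± SD, n = 3). Its RNA was thus highest in the libraries labelled S1S2 (log2 fold change -0.93, adjusted p = 5.90e-10), so the transcript itself gives no check of this label, and genotypes are used as labelled. The fold limit was passed for Suv39h2 once the median of its chromosome was removed (-1.01). Setdb1, which encodes Eset1, and Setdb2 were not called (log2 fold changes 0.21 and 0.12).

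The called partners of the H3K9 system were lower in G9Gl. Of 25 tested HP1 and silencing partners, none rose and 3 fell, beside 13.1% of all genes tested called in either direction and 5.08% called lower, and none of 11 H3K9 demethylases was called (2 rises and 1 fall under the p limit alone). Resf1, a retroelement silencing factor, was expressed at 257, 251 and 254 CPM in G9Gl and 972, 989.7 and 1003 CPM in S1S2 (log2 fold change -1.96 with SE 0.0168, adjusted p = 1.65e-15), with WT at 241 ± 18.7 CPM. Atf7ip, which binds and stabilizes Setdb1, had 110.0, 108 and 102 CPM in G9Gl and 224, 223 and 222 CPM in S1S2 (log2 fold change -1.06 with SE 0.0325, adjusted p = 1.48e-12). WT was at 109 ± 4.85 CPM for Atf7ip, and for both genes S1S2 lay above G9Gl and WT. Fam208a, a subunit of the HUSH silencing complex, fell by 1.00 on the log2 scale, at the fold limit, which it missed with chromosome medians removed (-0.937), with DESeq2 or its size factors (-0.998), without the filter on low counts or with at least 10 counts in every library (-0.988), with a mean count over 100 (-0.997), with thinned libraries (-0.999) and without G9Gl replicate 3 (-0.950), S1S2 replicate 3 (-0.970), WT replicate 1 (-0.996) or WT replicate 3 (-0.997).

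The largest differences were between libraries with no or nearly no reads of a gene and libraries with many. Where the normalized counts of the 9 libraries averaged over 100, the 5 largest rises by fitted fold change were in Crmp1, Akr1cl, Prl3d2, Zfp422 and the long intergenic non-coding RNA A230006K03Rik. Crmp1 (chromosome 5, 37241940 to 37292133), a collapsin response mediator of axon growth, was measured at 56.6, 64.0 and 62.5 CPM in G9Gl and 0.0460, 0.0364 and 0.0470 CPM in S1S2, or at least 433-fold higher, with WT at 2.28 ± 0.0847 CPM. Akr1cl (chromosome 1, 65012689 to 65032759), an aldo-keto reductase, had 33.1, 33.2 and 35.5 CPM in G9Gl and 0, 0 and 0.0470 CPM in S1S2, or at least 240.5-fold higher. Both were at the floor in S1S2 and high in the 3 G9Gl libraries. Zfp422, a zinc finger gene, was at least 132-fold higher (18.6 ± 0.582 against 0.0153 ± 0.0265 CPM), with WT at 15.6 ± 1.18 CPM, so that reads were found in WT and G9Gl and nearly none in S1S2. A230006K03Rik was at 10.2, 12.2 and 10.4 CPM in G9Gl and 0, 0 and 0 CPM in S1S2, or at least 77.5-fold higher.

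The 5 largest falls were in Sgsm1, Dpep1, Zfp981, Zfp978 and Sfrp2. Sgsm1 (chromosome 5, 113243220 to 113310786), a modulator of small G proteins, had 0 counts in the 3 G9Gl libraries and 21.2, 20.96 and 20.6 CPM in S1S2, at least 194-fold lower in G9Gl. Dpep1 (chromosome 8, 123186242 to 123201812), a membrane dipeptidase, likewise had 0 counts in G9Gl and 19.3, 20.2 and 22.4 CPM in S1S2, at least 192-fold lower. Sfrp2, a secreted Wnt antagonist, was at 8.32, 8.13 and 8.94 CPM in S1S2 and 5.83 ± 0.393 CPM in WT and had 0 counts in G9Gl, at least 78.5-fold lower. Adjusted p over these 10 genes ranged from 3.51e-18 for Crmp1 to 2.36e-11 for Zfp978.

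Most called interferon-induced genes were higher in G9Gl. Of 78 tested interferon-induced effector genes (82 in the table), 39 rose and 5 (6.41%) fell, the latter near the 5.08% of all genes called lower, with a median log2 fold change of 1.08 against 0.00 over all genes. Of the 5 that fell, 3 were also called with chromosome medians removed. Rsad2, which encodes viperin, was at 16.1, 11.96 and 12.4 CPM in G9Gl and 65.1, 63.4 and 69.0 CPM in S1S2 (log2 fold change -2.29 with SE 0.139, adjusted p = 3.49e-13). Cmpk2, a mitochondrial nucleotide kinase encoded next to Rsad2, had 9.41, 6.07 and 5.97 CPM in G9Gl and 24.4, 24.02 and 26.4 CPM in S1S2 (log2 fold change -1.80 with SE 0.217, adjusted p = 3.26e-09). Oasl1, an oligoadenylate synthetase-like protein, had 15.97, 13.1 and 15.0 CPM in G9Gl and 45.7, 46.7 and 50.4 CPM in S1S2 (log2 fold change -1.69 with SE 0.0941, adjusted p = 3.04e-10). In each case the S1S2 libraries lay above G9Gl and both mutants lay above WT, at 3.75 ± 0.215, 2.49 ± 0.335 and 4.03 ± 1.13 CPM.

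Ifit1 and Ifit2, which bind viral RNA or restrict its translation, were the other two, with log2 fold changes of -1.08 and -1.01 (SE 0.177 and 0.0578, adjusted p = 7.67e-08 and 3.98e-11). Both lie on chromosome 19, where the median gene was lower in G9Gl, and with chromosome medians removed their values were -0.567 and -0.494. Both also missed the fold limit without G9Gl replicate 2 (-0.985 and -0.968), and Ifit2 without S1S2 replicate 3 (-0.978).

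Among the genes that rose were GTPases, synthetases of the RNase L pathway and TRIM and Schlafen genes. Slfn2, a Schlafen gene, was at 14.8, 11.6 and 11.5 CPM in G9Gl and 0.138, 0.0729 and 0.188 CPM in S1S2 (log2 fold change 6.58 with SE 0.274, adjusted p = 7.81e-12), with 0 counts in WT. Trim30a, a TRIM family gene, had 99.9, 80.8 and 78.7 CPM in G9Gl and 2.11, 1.57 and 2.16 CPM in S1S2 (log2 fold change 5.49 with SE 0.181, adjusted p = 6.43e-16). Both S1S2 ranges lay below every G9Gl library. The immunity-related GTPases Tgtp1 and Tgtp2 had 25.7 ± 4.95 and 17.1 ± 2.07 CPM in G9Gl against 0.348 ± 0.107 and 0.302 ± 0.0408 CPM in S1S2 (SD, n = 3), although 77.2% and 81.3% of their 75-base words occur in another gene and the pair is best read as 1 value. Among oligoadenylate synthetases, which make the activator of RNase L, Oas1g (17.8 ± 3.69 against 0.619 ± 0.0958 CPM, 36.9% shared), Oas1a (32.4 ± 5.69 against 1.89 ± 0.284 CPM, 47.6% shared) and Oas2 (14.0 ± 3.40 against 1.36 ± 0.168 CPM) rose together, opposite to Oasl1. Ifi44 (3.83), Ifi27 (3.01) and Usp18, which removes ISG15 from proteins (2.63), also rose on the log2 scale. Ifit1, Ifit2, Trim30a, Oas1g, Oas1a, Oas2, Ifi44, Ifi27 and Usp18 were chosen after their values were seen.

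G9Gl replicate 1 was the highest G9Gl library for 42 of the 44 called effectors, and S1S2 replicate 3 the highest S1S2 library for 32. Without the former, 38 effectors rose and 5 fell, and without the latter 42 rose and 4 fell. What sets these libraries apart was not tested.

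Genes of interferon signalling were called at a share near that of all genes. Of 18 tested, 2 rose and 1 fell, or 16.7% against 13.1% over all genes tested, with a median of 0.02. Irf7, the amplifier of type I interferon, was at 22.5 ± 5.64 against 8.57 ± 1.43 CPM (log2 fold change 1.40 with SE 0.238, adjusted p = 9.81e-07). Irf9, the DNA-binding subunit of ISGF3, had 68.9, 53.4 and 56.9 CPM in G9Gl and 26.9, 24.5 and 25.9 CPM in S1S2 (log2 fold change 1.21 with SE 0.117, adjusted p = 1.34e-09). Irf5 went the other way, with 4.07, 3.41 and 3.36 CPM in G9Gl and 8.37, 8.42 and 7.90 CPM in S1S2 (log2 fold change -1.19 with SE 0.0917, adjusted p = 2.43e-07). Stat2, a signal transducer of type I interferon, had a log2 fold change of 0.21 (adjusted p = 0.0108) and was chosen after its values were seen. Irf7 and Irf9 were thus higher in the 3 G9Gl libraries and Irf5 in the 3 S1S2 libraries. G9Gl replicate 1 was the highest G9Gl library for each of the 3 called genes, and without it 2 again rose and 1 fell.

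Promoters of genes from both directions are shown to place the interferon-stimulated response element (ISRE) within them. Sequences are from RefSeq (GRCm38.p6), cover 250 bases before and 50 after the annotated start, run 5′ to 3′ on the gene's strand, and have matches in capitals. The core of the ISRE was searched as 2 copies of GAAA with 2 bases of any kind between them, and the gamma-activated site (GAS) as TTCNNNGAA, on both strands. Rsad2 and Cxcl10 were higher in S1S2, and Oas1g, Tgtp2 and Slfn2 were higher in G9Gl.
Rsad2 (chr12:26456403-26456702, minus strand): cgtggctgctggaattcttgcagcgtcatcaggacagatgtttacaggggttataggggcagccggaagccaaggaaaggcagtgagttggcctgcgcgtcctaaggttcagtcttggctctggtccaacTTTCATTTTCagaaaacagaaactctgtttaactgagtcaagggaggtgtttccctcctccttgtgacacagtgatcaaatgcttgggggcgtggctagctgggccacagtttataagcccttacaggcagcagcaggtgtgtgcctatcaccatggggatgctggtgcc
Cxcl10 (chr5:92348840-92349139, minus strand): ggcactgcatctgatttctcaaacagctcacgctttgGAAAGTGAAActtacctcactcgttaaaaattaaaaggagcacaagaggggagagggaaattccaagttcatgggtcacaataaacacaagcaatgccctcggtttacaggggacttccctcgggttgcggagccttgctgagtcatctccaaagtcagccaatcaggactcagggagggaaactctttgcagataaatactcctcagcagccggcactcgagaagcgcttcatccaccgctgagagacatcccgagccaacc
Oas1g (chr5:120887564-120887863, minus strand): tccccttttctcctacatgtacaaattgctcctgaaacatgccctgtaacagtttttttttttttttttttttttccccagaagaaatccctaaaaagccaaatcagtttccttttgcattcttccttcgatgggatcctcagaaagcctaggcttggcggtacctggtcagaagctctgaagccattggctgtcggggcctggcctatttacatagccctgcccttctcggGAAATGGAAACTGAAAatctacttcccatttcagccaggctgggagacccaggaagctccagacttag
Tgtp2 (chr11:49064163-49064462, minus strand): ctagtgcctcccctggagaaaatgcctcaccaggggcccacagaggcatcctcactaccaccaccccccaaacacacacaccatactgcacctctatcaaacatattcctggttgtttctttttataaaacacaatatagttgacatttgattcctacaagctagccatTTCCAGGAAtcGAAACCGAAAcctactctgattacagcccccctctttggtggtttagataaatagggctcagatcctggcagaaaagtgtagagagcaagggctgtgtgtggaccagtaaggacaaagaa
Slfn2 (chr11:83064862-83065161, plus strand): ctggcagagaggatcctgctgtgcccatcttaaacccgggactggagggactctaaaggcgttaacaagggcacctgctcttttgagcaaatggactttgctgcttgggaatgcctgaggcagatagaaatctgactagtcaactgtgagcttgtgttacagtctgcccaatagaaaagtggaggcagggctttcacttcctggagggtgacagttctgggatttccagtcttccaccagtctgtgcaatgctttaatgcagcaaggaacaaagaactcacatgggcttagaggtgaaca

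Rsad2 and Cxcl10 hold 1 ISRE each, at -120 and -213 from the start, and Oas1g holds 2 that overlap, at -18 and -12. Tgtp2 holds 1 ISRE at -70 and 1 GAS at -81, and in Slfn2 neither pattern occurs in this window. An ISRE occurs in 3.44% of all 32851 RefSeq promoters of this length and in 3.72% of those of genes tested. It occurs in 60.3% of the 58 tested effector genes with a promoter, in 19 of 29 such genes that rose and in 2 of 5 that fell. Over all called genes, it occurs in 8.81% of the promoters of rises and 3.62% of those of falls. The pattern was thus found on both sides of the comparison, and a match is a description of these letters, not of binding.

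Antigen presentation and nucleic acid sensing were higher in G9Gl in each called member. Of 22 tested genes of MHC class I presentation, 11 rose and none fell (median 1.02). Nlrc5, the transactivator of MHC class I genes, was at 79.3, 67.9 and 68.2 CPM in G9Gl and 4.46, 4.99 and 4.42 CPM in S1S2 (log2 fold change 3.95 with SE 0.0922, adjusted p = 2.02e-16), with WT at 0.896 ± 0.0368 CPM. The classical heavy chains H2-K1 (437 ± 36.0 against 107 ± 6.07 CPM) and H2-D1 (424 ± 36.6 against 107 ± 1.18 CPM), the non-classical H2-Q4 (63.0 ± 8.27 against 8.19 ± 1.42 CPM) and the light chain B2m (632 ± 50.1 against 212 ± 5.60 CPM) were higher in each G9Gl library than in any S1S2 library. Psmb8, a catalytic subunit of the immunoproteasome, had 10.04, 7.65 and 8.58 CPM in G9Gl and 0.690, 0.583 and 0.988 CPM in S1S2 (log2 fold change 3.56 with SE 0.234, adjusted p = 8.47e-11). H2-T10 was at least 21.4-fold higher, with 16.1% of its 75-base words shared and a second gene overlapping it. Tap1, the peptide transporter, rose by 1.13 and its neighbour Psmb9 by 1.61 on the log2 scale, and these genes overlap on opposite strands. H2-K1, H2-D1, H2-Q4, B2m, Tap1 and Psmb9 were chosen after their values were seen. For each of the 11 called members G9Gl replicate 1 was the highest G9Gl library, and 10 members were called higher without it, Tap1 falling short of the fold limit (0.982). S1S2 replicate 3 was the highest S1S2 library for 9 of the 11, and 11 members rose and none fell without it.

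Of 21 tested sensors, 7 rose and none fell (median 0.39). Aim2, the inflammasome sensor of double-stranded DNA, was at 26.7, 23.9 and 23.7 CPM in G9Gl and 0.414, 0.401 and 0.282 CPM in S1S2 (log2 fold change 6.05 with SE 0.156, adjusted p = 9.32e-14). Tlr7, the endosomal receptor for single-stranded RNA, had 4.49, 4.35 and 3.92 CPM in G9Gl and 0.0919, 0.182 and 0.0941 CPM in S1S2 (log2 fold change 5.01 with SE 0.216, adjusted p = 3.38e-10). S1S2 lay below WT for Aim2 (3.10 ± 0.863 CPM), and both S1S2 and WT (0.183 ± 0.0839 CPM) were close to the floor for Tlr7. Tlr3, which binds double-stranded RNA, and Tlr4, which binds lipopolysaccharide, rose by 1.38 and 1.52 on the log2 scale and were chosen after their values were seen. G9Gl replicate 1 was the highest G9Gl library for 6 of the 7 called sensors, and without it 7 sensors rose and none fell.

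Chemokines and cytokines split by gene. Of 21 tested members (34 in the table), 7 rose and 3 fell, while the median of -0.30 was negative. Cxcl10, a ligand of the T cell receptor Cxcr3, was at 36.0, 38.3 and 36.6 CPM in G9Gl and 133, 129 and 136 CPM in S1S2 (log2 fold change -1.85 with SE 0.0350, adjusted p = 2.02e-14), and Cxcl11, a second ligand of Cxcr3, was at least 14.2-fold lower in G9Gl. Cxcl12, the ligand of Cxcr4, had 6.21, 9.45 and 8.06 CPM in G9Gl and 39.0, 35.9 and 29.1 CPM in S1S2 (log2 fold change -2.13 with SE 0.215, adjusted p = 3.88e-09). All 3 of these genes encode chemokines. The rises included the chemokine Ccl9, at 23.3, 25.9 and 27.7 CPM in G9Gl and 0.138, 0.219 and 0.0941 CPM in S1S2 (log2 fold change 7.32 with SE 0.245, adjusted p = 1.04e-15), and Il1rl1, the receptor for interleukin 33, at 301, 349.7 and 350.0 CPM in G9Gl and 41.6, 40.8 and 34.0 CPM in S1S2 (log2 fold change 3.10 with SE 0.117, adjusted p = 8.46e-14). Il1a had 0 counts in S1S2 and WT and 2.28, 1.83 and 2.51 CPM in G9Gl, a level at least 15.7-fold higher.

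**Figure D2:**
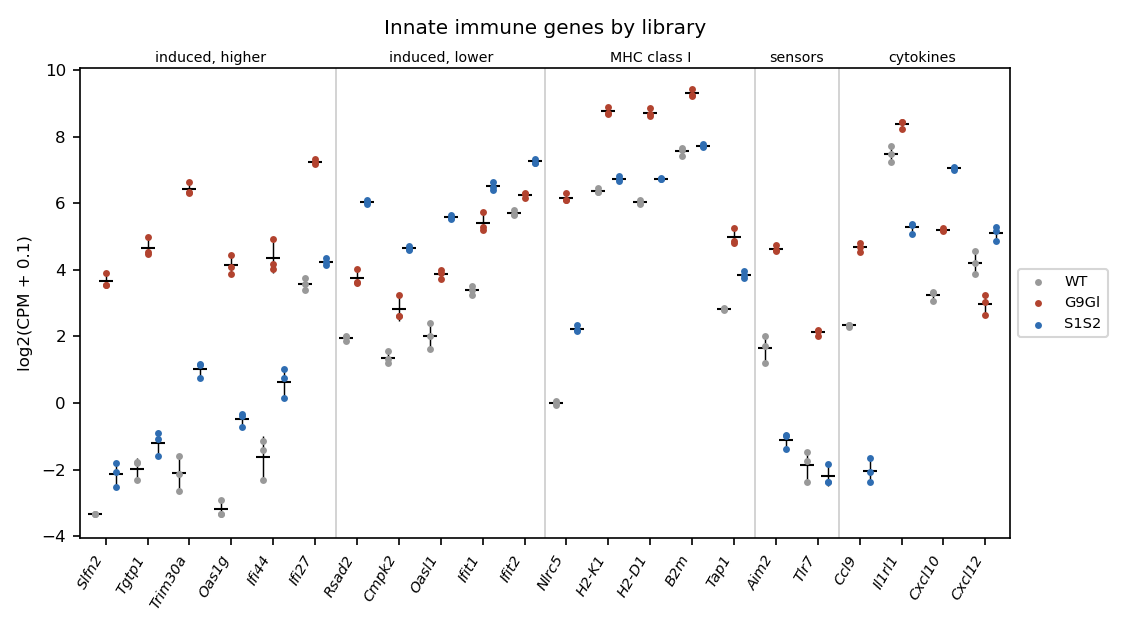
Level of 22 innate immune genes in each library, as log2(CPM + 0.1), for WT (grey), G9Gl (red) and S1S2 (blue). Points are libraries and bars show the mean ± SD of 3, and S1S2 lies above G9Gl for Rsad2, Cmpk2, Oasl1, Ifit1, Ifit2, Cxcl10 and Cxcl12 and below it for the other 15 genes.

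Prolactin genes and Akr1c genes were higher in G9Gl. They were listed with other aldo-keto reductases, and of 17 tested genes of that list (33 in the table) 12 rose and none fell. The rises were 8 prolactin genes and 4 genes of the Akr1c group, and the 5 tested members not called were the other aldo-keto reductases Akr1a1, Akr1b3, Akr1b8, Akr1b10 and Akr1e1, a split made after the values were seen. Akr1c14, 1 of the 4, was not called without G9Gl replicate 1 (1.90) or 3 (1.79) or S1S2 replicate 2 (2.19) or 3 (1.39), its log2 fold change standing at 1.91 over all libraries. Over the whole list the median log2 fold change was 4.67, and 3.47 with the 8 members at the floor set to their bounds. Members at the floor in S1S2 and WT, such as Prl3d2, could be tested only through G9Gl. The share of rises, the absence of falls and these medians are therefore partly set by the filter on low counts. Prl3d2, a placental lactogen made by trophoblast giant cells, was at 32.7, 33.3 and 33.1 CPM in G9Gl and 0.0460, 0 and 0.0941 CPM in S1S2, a level at least 234-fold higher, with 0 counts in WT. Prl2c2, a proliferin, had 18.2, 22.3 and 21.3 CPM in G9Gl and 0.368, 0.255 and 0.282 CPM in S1S2 (log2 fold change 6.09 with SE 0.155, adjusted p = 9.32e-14), with WT at 0.301 ± 0.174 CPM. S1S2 and WT were thus alike near the floor. Prl3d3 was at least 24.2-fold, Prl2c5 at least 29.8-fold and Prl7a2 at least 13.04-fold higher, the last of these chosen with Prl2c5 after their values were seen. The family is built of near copies, with 54.4% of the 75-base words shared for Prl3d2, 53.9% for Prl3d3, 71.8% for Prl2c2 and 19.6% for Prl2c5, so single members are uncertain. Akr1c13 rose as well (6.73 ± 0.649 against 0.357 ± 0.195 CPM, 14.3% shared). Of the trophoblast markers, Cdx2 and Gcm1 had 0 counts in the 6 mutant libraries and Elf5 had 0 counts in G9Gl. The summed level of 6 trophoblast markers was 23.1 to 27.2 CPM in G9Gl, 1.09 to 1.93 CPM in S1S2 and 1.93 to 2.35 CPM in WT, with 2 of the 6 called. Most of the G9Gl sum came from Prl2c2, itself a member of the list above, and the other called marker was Eomes, the T-box factor of trophoblast stem cells, at 4.53, 4.63 and 4.31 CPM in G9Gl and 1.43, 0.838 and 1.65 CPM in S1S2 (log2 fold change 1.81 with SE 0.280, adjusted p = 5.11e-07). The part of trophoblast markers in the result was not tested.

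Germline genes were mostly higher in S1S2 where they were called. Of 17 tested germline genes (67 in the table), 7 (41.2%) fell and 1 (5.88%) rose (median -0.59), beside 5.08% and 7.97% of all genes. Tdrd9, a helicase of the piRNA pathway, had 0 counts in G9Gl and 8.14, 8.02 and 6.63 CPM in S1S2, at least 70.5-fold lower in G9Gl, with WT at 0.0107 ± 0.0186 CPM. Syce2, a component of the synaptonemal complex, was at 3.61, 3.59 and 3.53 CPM in G9Gl and 15.6, 20.3 and 17.9 CPM in S1S2 (log2 fold change -2.33 with SE 0.111, adjusted p = 1.03e-10), and Zcwpw1, a reader of meiotic histone marks, at 2.46, 1.54 and 2.12 CPM in G9Gl and 9.24, 9.48 and 9.08 CPM in S1S2 (log2 fold change -2.18 with SE 0.191, adjusted p = 1.09e-09). These 3 were higher in the S1S2 libraries without overlap. Spo11, which makes the breaks of meiotic recombination, and Tex15 were also lower, by at least 4.63-fold and at least 6.26-fold. Stag3, a meiotic cohesin, fell (0.249 ± 0.184 against 0.894 ± 0.143 CPM), and its fitted value of -1.79 did not pass the test without G9Gl replicate 2 (-1.31), S1S2 replicate 1 (-1.73) or S1S2 replicate 3 (-1.72). The single rise, joined by 1 more without S1S2 replicate 1, was Nxf3, an X-linked member of the nuclear RNA export family, at 17.7, 19.6 and 21.1 CPM in G9Gl and 0.0460, 0 and 0.0470 CPM in S1S2, a level at least 138-fold higher. Rhox5, an X-linked homeobox gene of the germline and placenta, had 10.6, 10.7 and 11.3 CPM in G9Gl and 1.56, 1.35 and 1.60 CPM in S1S2 (log2 fold change 2.86 with SE 0.0787, adjusted p = 2.66e-11), and both mutants lay above WT (0.0866 ± 0.0515 CPM). Among 11 tested X-linked germline family genes, 4 rose and none fell (4 falls under the p limit alone, and 1 called fall with the replicate block, with only the 6 mutant libraries, without the filter on low counts, or without S1S2 replicate 2 or WT replicate 3). Spo11, Tex15 and Stag3 were chosen after their values were seen.

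Called imprinted genes were mostly lower in G9Gl. Of 34 tested, 3 (8.82%) rose and 7 (20.6%) fell, beside 7.97% and 5.08% of all genes, although the median of 0.17 was positive. Under the p limit alone the balance was reversed, with 14 higher and 9 lower. Igf2, the fetal growth factor, was at 0.0702, 0.144 and 0.0979 CPM in G9Gl and 7.26, 7.03 and 8.94 CPM in S1S2 (log2 fold change -6.16 with SE 0.205, adjusted p = 3.35e-13), with WT at 33.0 ± 1.95 CPM, and 60.2% of its 75-base words occur in another gene. Its partner H19, an imprinted non-coding RNA, was at least 5.11-fold lower in G9Gl (0.0702 ± 0.0376 against 0.551 ± 0.0404 CPM), with WT at 18.7 ± 1.85 CPM. Plagl1, a zinc finger regulator of imprinted genes, had 0.421, 0.395 and 0.392 CPM in G9Gl and 5.01, 5.61 and 5.64 CPM in S1S2 (log2 fold change -3.74 with SE 0.0619, adjusted p = 1.99e-10). The cell cycle inhibitor Cdkn1c had 19.98 ± 0.700 against 50.6 ± 0.879 CPM (log2 fold change -1.34 with SE 0.0326, adjusted p = 2.03e-12), with WT at 20.9 ± 0.897 CPM. Snrpn, a splicing factor gene, had 0 counts in G9Gl and was at least 8.26-fold lower, with 18.9% of its 75-base words shared. Rises were found in Ppp1r9a (1.59), Tspan32 (4.40) and Peg13 (1.04), which lies within Trappc9. Peg13 missed the fold limit without S1S2 replicate 2 (0.994) and with chromosome medians removed (0.943). H19, Cdkn1c and Snrpn were chosen after their values were seen.

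**Figure D3:**
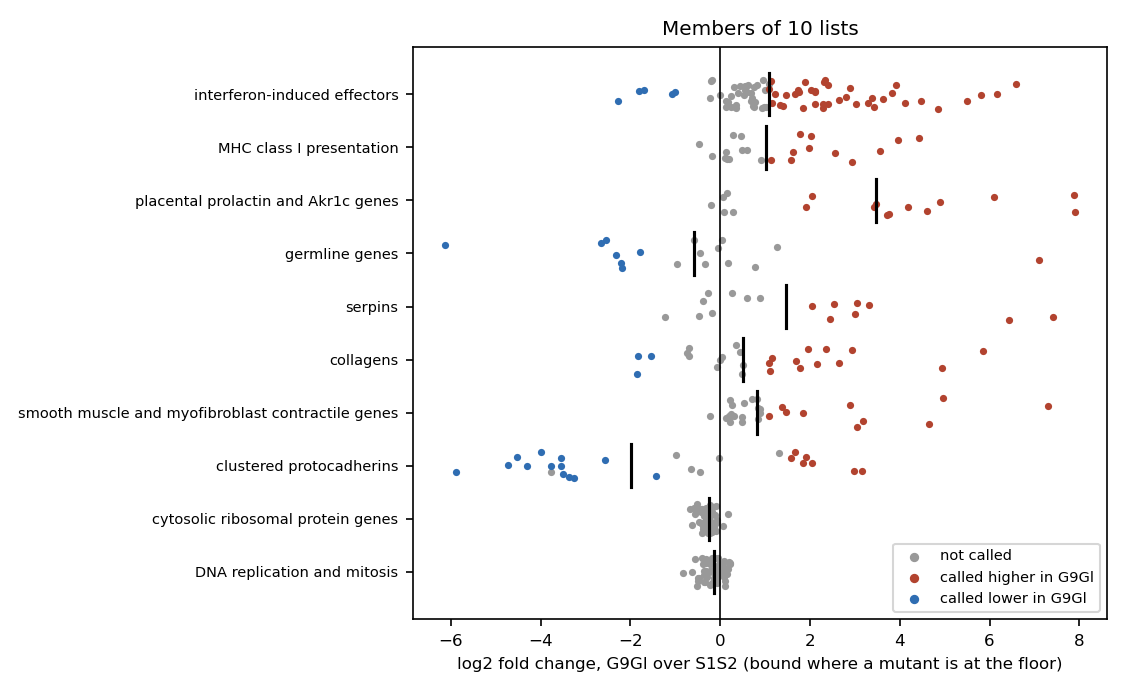
Log2 fold change of G9Gl over S1S2 for each tested member of 10 lists, with the bound in place of the fitted value where a mutant was at the floor; red and blue points were called higher and lower, grey points were not called, and black lines are medians. The called serpin, MHC class I, prolactin and Akr1c genes lie to the right and called germline genes to the left, except Nxf3, which lies to the right. Protocadherins lie on both sides, and ribosomal and replication genes near 0.

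Extracellular matrix genes were higher in G9Gl for most called members. Of 25 tested collagens, 12 rose and 3 fell (median 0.50), and of 44 other fibre, basement membrane and matricellular genes 15 rose and 5 fell (median 0.48). Col1a2, a chain of type I collagen, was at 1941, 2086 and 2062 CPM in G9Gl and 384, 394 and 408 CPM in S1S2 (log2 fold change 2.36 with SE 0.0408, adjusted p = 8.93e-17), while its partner chain Col1a1 had 2269.9, 2766 and 2480.2 CPM in G9Gl and 2599, 2578 and 2756 CPM in S1S2 and was not called (log2 fold change -0.08, adjusted p = 0.442). Col3a1 followed Col1a2, at 821, 861 and 851 CPM in G9Gl and 181, 182 and 207 CPM in S1S2 (log2 fold change 2.15 with SE 0.0665, adjusted p = 9.96e-16). In WT, Col1a2 was at 2396 ± 90.9 and Col3a1 at 1527 ± 42.4 CPM, so that for Col1a2 S1S2 stood low, while for Col3a1 both mutants were below WT and S1S2 was the lowest. Col6a3, a chain of the beaded-filament collagen, had 30.4, 31.3 and 30.1 CPM in G9Gl and 0.368, 0.838 and 0.282 CPM in S1S2 (log2 fold change 5.86 with SE 0.412, adjusted p = 2.74e-15; 6.54 without S1S2 replicate 2), and Col11a1, a fibrillar collagen of cartilage, was at least 30.6-fold higher. Col12a1, which sits on the surface of collagen fibrils, went the other way, at 40.6, 49.2 and 48.5 CPM in G9Gl and 173, 171 and 157 CPM in S1S2 (log2 fold change -1.86 with SE 0.0996, adjusted p = 8.55e-14), as did Col27a1 (-1.55) and Col20a1 (-1.82).

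Postn, a matricellular protein of wounds and tendon, was at 129, 119.8 and 129.9 CPM in G9Gl and 7.26, 8.20 and 6.21 CPM in S1S2 (log2 fold change 4.12 with SE 0.121, adjusted p = 3.73e-17). Ltbp2 and Mfap5, proteins of elastic microfibrils, had log2 fold changes of 4.51 and 4.16, and Fbn2, the fetal fibrillin, of 3.86 (137 ± 6.50 against 9.41 ± 0.193 CPM). Tnc (488 ± 28.1 against 83.1 ± 5.13 CPM) and Thbs1 (1315 ± 78.4 against 414 ± 50.1 CPM), both adhesion-modulating proteins, and Lox, which crosslinks collagen (774 ± 32.3 against 306 ± 2.72 CPM), rose at high levels. The falls were Npnt, a ligand of integrin alpha8 beta1, at 12.5, 14.0 and 14.6 CPM in G9Gl and 66.0, 70.5 and 63.8 CPM in S1S2 (log2 fold change -2.29 with SE 0.0782, adjusted p = 1.36e-14), together with Ccn3 (-2.88), Tnxb (-4.11), Tgfbi (-1.29) and Fbln1 (-1.17, or -0.979 without G9Gl replicate 3). Among small leucine-rich proteoglycans, Bgn rose (368 ± 29.0 against 118 ± 3.47 CPM) and Dcn, also an imprinted gene, fell (0.198 ± 0.0807 against 2.18 ± 0.834 CPM). Of 31 laminins and integrins 7 rose and 3 fell. Lamb3 (31.7 ± 0.319 against 0.613 ± 0.0399 CPM), a chain of an epithelial laminin, was among the rises. Fbn2, Tnc, Thbs1, Lox, Fbln1 and Tgfbi were chosen after their values were seen.

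Each called serpin and contractile gene was higher in G9Gl. Of 16 tested serpins (63 in the table), 8 rose and none fell (median 1.46), and 2 were lower under the p limit alone. For 3 of the 16, a mutant was at the floor. Where WT was at the floor too, such genes could be tested only through the other mutant. Serpinf1, which encodes the anti-angiogenic factor PEDF, was at 217, 176 and 188 CPM in G9Gl and 1.33, 0.838 and 1.32 CPM in S1S2 (log2 fold change 7.41 with SE 0.224, adjusted p = 2.23e-17), with WT at 153 ± 14.9 CPM. It was abundant in WT and G9Gl and close to absent in S1S2. Serpinb9b, an intracellular inhibitor of granzymes (131 ± 4.996 against 31.9 ± 0.915 CPM, chosen after its values were seen), and Serpinb6b (20.9 ± 0.664 against 2.08 ± 0.590 CPM) were highest in G9Gl, with WT at 11.4 ± 0.778 and 0.533 ± 0.128 CPM.

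Of 28 tested smooth muscle and myofibroblast genes, 10 rose and none fell (median 0.83), and 24 were higher and 1 lower under the p limit alone. Acta2, the smooth muscle actin that defines myofibroblasts, was at 1004, 1023 and 1092 CPM in G9Gl and 43.7, 41.7 and 39.1 CPM in S1S2 (log2 fold change 4.65 with SE 0.0591, adjusted p = 2.94e-19), with WT at 267 ± 16.5 CPM. Actg2, the enteric smooth muscle actin, had 59.6, 61.3 and 63.2 CPM in G9Gl and 0.184, 0.401 and 0.564 CPM in S1S2 (log2 fold change 7.31 with SE 0.388, adjusted p = 2.23e-17), and Myl9, a regulatory myosin light chain, 157, 164 and 168 CPM in G9Gl and 5.15, 6.12 and 4.19 CPM in S1S2 (log2 fold change 4.96 with SE 0.159, adjusted p = 1.12e-17). G9Gl was above WT and S1S2 below it for Acta2 and Myl9. Tagln (645 ± 23.4 against 78.6 ± 3.21 CPM), Mylk, the kinase of myosin light chains (17.4 ± 0.994 against 2.37 ± 0.161 CPM), and Cald1 (588 ± 54.2 against 276 ± 3.75 CPM) rose too and were chosen after their values were seen. Of the skeletal muscle markers, only Acta1 was called (2.97 ± 0.633 against 0.281 ± 0.119 CPM). It made up most of their summed level, 2.29 to 3.5 CPM in G9Gl and 0.182 to 0.414 CPM in S1S2. Myod1 had 0 counts in the 6 libraries, and Myog, Myh3 and Ckm had at most 1 count in any of them. The part of these markers in the result was not tested.

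Proteases differed gene by gene. Of 37 tested Mmp, Adam and Adamts genes, 11 rose and 5 fell. The gelatinases parted, with Mmp2 at 9.93, 7.22 and 8.81 CPM in G9Gl and 1.20, 1.35 and 0.988 CPM in S1S2 (log2 fold change 2.86 with SE 0.181, adjusted p = 1.46e-09) and Mmp9 at 0.281, 0.251 and 0.261 CPM in G9Gl and 3.68, 4.52 and 3.86 CPM in S1S2 (log2 fold change -3.91 with SE 0.0957, adjusted p = 2.03e-09). The aggrecanase Adamts5 (111 ± 8.62 against 22.3 ± 1.35 CPM, chosen after its values were seen) rose and the sheddase Adam8 (4.14 ± 0.0418 against 28.1 ± 3.13 CPM) fell. Adam22, a neuronal receptor without protease activity, was at least 155-fold lower in G9Gl. The plasminogen activators also parted: Plau, the urokinase, was at 117, 139 and 126 CPM in G9Gl and 48.3, 47.4 and 42.7 CPM in S1S2 (log2 fold change 1.46 with SE 0.0917, adjusted p = 4.59e-12) and Plat, the tissue type, at 21.8, 22.2 and 22.5 CPM in G9Gl and 85.5, 80.6 and 82.3 CPM in S1S2 (log2 fold change -1.90 with SE 0.0284, adjusted p = 3.00e-15). Of the 11 tested metalloproteinase inhibitors and plasminogen genes, 4 rose and 2 fell, while the median was -0.28. Timp3, an inhibitor bound to matrix, rose (340.2 ± 7.11 against 134 ± 14.0 CPM), and Timp1 (-0.29) and Timp2 (-0.28) were not called.

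**Figure D4:**
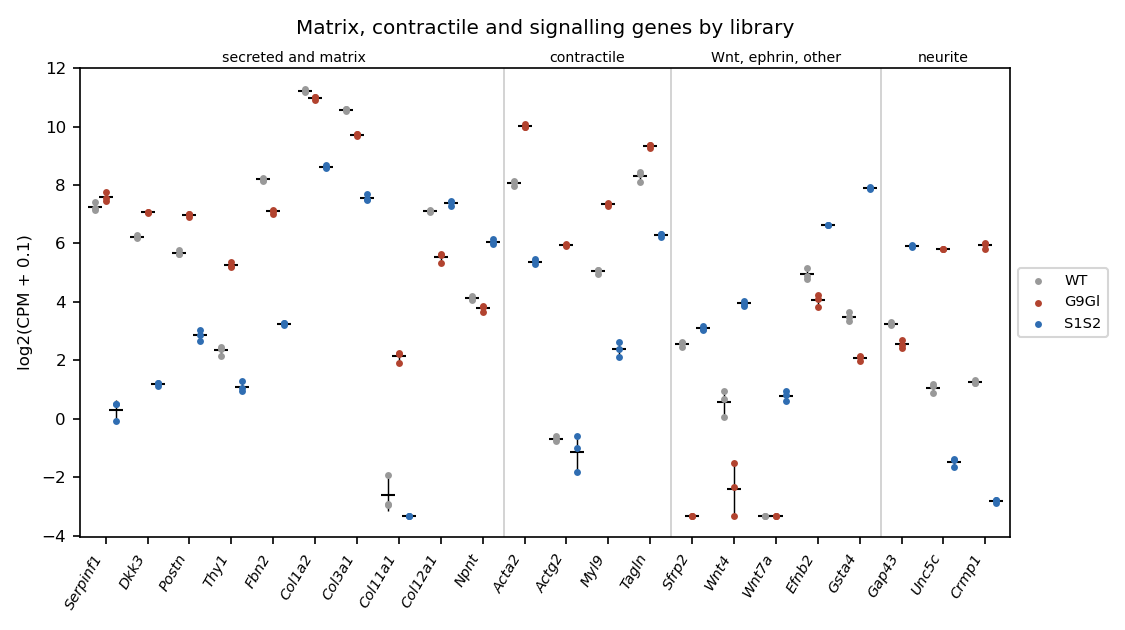
Level of 22 matrix, contractile, signalling and neurite genes in each library, as log2(CPM + 0.1), for WT (grey), G9Gl (red) and S1S2 (blue), with the mean ± SD of 3 libraries. S1S2 lies above G9Gl for Col12a1, Npnt, Sfrp2, Wnt4, Wnt7a, Efnb2, Gsta4 and Gap43 and below it for the other 14 genes.

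Called transcription factors of limb and mesenchyme were mostly lower in G9Gl. Of 54 tested, 5 (9.26%) rose and 11 (20.4%) fell (median -0.29), beside 7.97% and 5.08% of all genes tested. Lmx1b, which specifies the dorsal limb, had 0 counts in G9Gl and 3.13, 4.08 and 3.48 CPM in S1S2, at least 33.1-fold lower, with WT at 10.5 ± 1.36 CPM. Eya4, a transcriptional coactivator, was at 0.386, 0.359 and 0.261 CPM in G9Gl and 13.7, 15.7 and 15.8 CPM in S1S2 (log2 fold change -5.48 with SE 0.156, adjusted p = 3.34e-15), with WT at 51.8 ± 2.61 CPM. Both genes were thus ordered WT, S1S2, G9Gl from high to low. Osr1, a factor of limb connective tissue, had 5.86, 5.50 and 5.71 CPM in G9Gl and 24.1, 22.9 and 20.7 CPM in S1S2 (log2 fold change -1.99 with SE 0.0691, adjusted p = 6.58e-12). Prrx2 (-1.47) and Irx1 (-1.46), chosen after their values were seen, fell as well. Prrx1, the related marker of limb mesenchyme, rose instead, at 104, 103 and 94.5 CPM in G9Gl and 17.5, 19.9 and 20.2 CPM in S1S2 (log2 fold change 2.39 with SE 0.0805, adjusted p = 1.43e-15). Alx1, a craniofacial homeobox gene, was at least 28.9-fold higher, and Ebf1 (13.04 ± 0.609 against 1.57 ± 0.379 CPM), Irx3 (4.43 ± 0.313 against 0.405 ± 0.225 CPM) and the forelimb factor Tbx5 (13.4 ± 0.402 against 4.70 ± 0.611 CPM) rose. Tbx1, of the pharyngeal arches, was at least 11.2-fold lower. Of 29 tested Hox genes none rose and 2 fell, a share of 6.90% beside 5.08% of all genes called lower. These were Hoxb13 (1.52 ± 0.546 against 5.001 ± 0.487 CPM) and Hoxd8 (0.0351 ± 0.0608 against 0.469 ± 0.159 CPM), the latter chosen after its values were seen.

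Wnt pathway genes differed in both directions. Of 19 tested Wnt ligands and Frizzled receptors, 3 rose and 6 (31.6%) fell. Wnt4 was at 0, 0.251 and 0.0979 CPM in G9Gl and 15.3, 16.1 and 14.6 CPM in S1S2 (log2 fold change -7.01 with SE 0.631, adjusted p = 2.29e-12; -8.12 without G9Gl replicate 2), Wnt7a had 0 counts in G9Gl and WT and was at least 15.2-fold lower than in S1S2, and Wnt5b had 0.386, 0.467 and 0.685 CPM in G9Gl and 4.78, 4.56 and 5.22 CPM in S1S2 (log2 fold change -3.22 with SE 0.221, adjusted p = 1.09e-09). These 3 ligands were higher in each S1S2 library than in any G9Gl library. The receptors Fzd1 (110.1, 105 and 106 CPM in G9Gl and 37.1, 32.7 and 39.5 CPM in S1S2; log2 fold change 1.56 with SE 0.0824, adjusted p = 3.22e-13) and Fzd4 (15.5 ± 1.12 against 3.42 ± 0.274 CPM) were higher in G9Gl, as was Wls, the carrier needed for Wnt secretion (345 ± 9.69 against 147 ± 3.39 CPM). Dkk3, a secreted Dickkopf protein, was at 130.4, 136 and 136 CPM in G9Gl and 2.07, 2.22 and 2.26 CPM in S1S2 (log2 fold change 5.93 with SE 0.0422, adjusted p = 1.55e-19), with WT at 74.8 ± 2.95 CPM, in contrast to Sfrp2, given above. Notum, a secreted Wnt deacylase, fell (0.557 ± 0.163 against 3.03 ± 0.0630 CPM). The co-receptor Lrp5, on chromosome 19, had a log2 fold change of -1.17, and -0.65 with chromosome medians removed.

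Of 45 tested TGF-beta and BMP genes, 7 rose and 8 fell (median -0.02). The BMP receptor Bmpr1b was at 13.2, 12.6 and 13.02 CPM in G9Gl and 0.414, 0.182 and 0.141 CPM in S1S2 (log2 fold change 5.72 with SE 0.362, adjusted p = 2.06e-13). Inhba, the subunit of activin A, had 39.1, 52.2 and 40.6 CPM in G9Gl and 12.3, 11.3 and 11.1 CPM in S1S2 (log2 fold change 1.93 with SE 0.138, adjusted p = 3.19e-10). The ligand Bmp6 (0.288 ± 0.0745 against 3.33 ± 0.799 CPM) and the signal transducer Smad9 (2.27 ± 0.133 against 5.37 ± 0.537 CPM) were lower. In the Notch pathway the ligand Jag1 (14.3 ± 0.361 against 4.90 ± 0.736 CPM), the receptor Notch3 (19.8 ± 0.724 against 7.33 ± 0.862 CPM) and the feedback gene Nrarp (3.86 ± 0.0403 against 1.22 ± 0.200 CPM) rose, and the ligand Jag2 fell (0.807, 0.682 and 1.04 CPM in G9Gl and 7.17, 6.92 and 5.83 CPM in S1S2; log2 fold change -2.96 with SE 0.188, adjusted p = 2.47e-10).

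Growth factor ligands and their receptors also went both ways, with 12 of 47 tested higher and 4 lower in G9Gl. These were 25.5% and 8.51%, beside 7.97% and 5.08% of all genes tested. Tgfa, a ligand of the EGF receptor, was at least 77.2-fold lower in G9Gl, at 9.38, 7.76 and 7.81 CPM in S1S2 and 0.0702, 0.0718 and 0.0326 CPM in G9Gl. Hbegf, a second ligand of that receptor, had 18.7, 17.9 and 18.2 CPM in G9Gl and 39.4, 41.4 and 34.4 CPM in S1S2 (log2 fold change -1.07 with SE 0.0821, adjusted p = 7.83e-10). Both ligands were highest in S1S2, with WT at 0.0643 ± 0.0336 and 10.05 ± 0.250 CPM. Hgf, the ligand of Met, was at 9.44, 9.81 and 9.63 CPM in G9Gl and 0.230, 0 and 0 CPM in S1S2, and its log2 fold change of 6.99 became 11.1 without S1S2 replicate 1, the sole S1S2 library with counts, and 6.32 without S1S2 replicate 2. Pdgfd rose (95.7 ± 2.84 against 28.3 ± 0.811 CPM) and was chosen after its values were seen. Receptors of the GDNF family parted, Gfra1 at 2.06 ± 0.210 against 15.0 ± 1.10 CPM and Gfra2 at 2.40 ± 0.201 against 0.383 ± 0.142 CPM. In the IGF axis, Igf1 (10.5 ± 2.18 against 24.5 ± 0.221 CPM) fell with Igf2, and the binding protein Igfbp3 was at least 13.1-fold higher.

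Among 27 tested RSK, MSK and MAP kinase genes, 2 (7.41%) rose and 5 (18.5%) fell, beside 7.97% and 5.08% of all genes tested. The rises were thus near the share of all genes. Of the falls, Rps6ka4 missed the fold limit with chromosome medians removed (-0.582). Rps6ka6, which encodes the kinase RSK4, was at 17.9, 17.6 and 17.1 CPM in G9Gl and 0, 0 and 0.0941 CPM in S1S2, a level at least 124-fold higher, with WT at 3.26 ± 0.0891 CPM. The falls included the feedback phosphatases Dusp4 (0.737, 1.08 and 0.588 CPM in G9Gl and 6.90, 6.60 and 6.72 CPM in S1S2; log2 fold change -3.08 with SE 0.235, adjusted p = 1.05e-09) and Dusp5 (9.52 ± 0.238 against 29.0 ± 1.81 CPM) and the inhibitor Spry4 (0.714 ± 0.172 against 2.26 ± 0.179 CPM), each higher in S1S2 than in WT.

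Clustered protocadherins, the adhesion proteins that give neurons their surface identity, separated by cluster. Of 26 tested genes (57 in the table), 7 rose and 13 fell. The 7 rises were among the 9 tested genes of the beta cluster, with none lower there (median 2.01, or 1.85 with bounds). The 13 falls were among the 17 tested genes of the gamma cluster, with none higher (median -3.76, or -3.49 with bounds). The split by cluster was made after the values were seen. Pcdhgb2, of the gamma cluster, was at 0.105, 0.108 and 0.0326 CPM in G9Gl and 6.39, 6.71 and 6.11 CPM in S1S2, at least 59.4-fold lower, with WT at 0.756 ± 0.203 CPM, and Pcdhga9 was at least 23.1-fold lower. Pcdhb21, of the beta cluster, had 1.44, 1.08 and 1.34 CPM in G9Gl and 0.460, 0.292 and 0.282 CPM in S1S2 (log2 fold change 1.90 with SE 0.224, adjusted p = 2.03e-05), with WT higher than both at 7.55 ± 0.727 CPM. Gamma genes share their last exons, 49.6% of the 75-base words of Pcdhgb2 and 38.2% of those of Pcdhga9 occur in other genes, and the genes overlap, so values of single members are uncertain.

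Cues and receptors of axon guidance differed in both directions. Unc5c, a netrin receptor, was at 56.0, 55.4 and 56.7 CPM in G9Gl and 0.276, 0.219 and 0.282 CPM in S1S2 (log2 fold change 7.75 with SE 0.0916, adjusted p = 4.07e-18), and Slit3, a repulsive cue, at 6.60, 6.86 and 6.10 CPM in G9Gl and 0.184, 0.328 and 0.141 CPM in S1S2 (log2 fold change 4.82 with SE 0.275, adjusted p = 2.18e-11). Robo2, a receptor for slits, had 0.0351, 0.144 and 0.0326 CPM in G9Gl and 5.10, 6.38 and 4.75 CPM in S1S2 and went the other way (log2 fold change -6.21, or -7.15 without G9Gl replicate 2). Of 11 tested slits, robos, netrins and Unc5 receptors, 4 rose and 2 fell. Sema3a, a secreted semaphorin, was higher in G9Gl (274, 268 and 274 CPM in G9Gl and 99.0, 96.2 and 90.9 CPM in S1S2; log2 fold change 1.51 with SE 0.0378, adjusted p = 8.92e-15) and the membrane-bound Sema5a higher in S1S2 (3.72, 4.56 and 3.69 CPM in G9Gl and 59.6, 58.2 and 54.4 CPM in S1S2; log2 fold change -3.85 with SE 0.106, adjusted p = 3.02e-16). Efnb2, an ephrin of arterial vessels and limb mesenchyme, was at 14.0, 18.7 and 17.0 CPM in G9Gl and 99.8, 98.5 and 98.5 CPM in S1S2 (log2 fold change -2.58 with SE 0.124, adjusted p = 2.57e-13). Ephrins and Eph receptors as a list had 1 rise and 3 falls of 15 tested. There was 1 fall without G9Gl replicate 1, without S1S2 replicate 1 or with chromosome medians removed, and there were 2 without any 1 of the other mutant libraries or with thinned libraries.

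Of 35 tested neuronal and synaptic genes (80 in the table), 9 rose and 4 fell. L1cam, an adhesion protein of axons, was at 19.6, 20.04 and 20.95 CPM in G9Gl and 2.39, 2.33 and 1.93 CPM in S1S2 (log2 fold change 3.18 with SE 0.0988, adjusted p = 2.34e-12), and the tubulin regulator Stmn2 was at least 18.1-fold higher in G9Gl, with 0 counts in S1S2. Gap43, a growth cone protein, was at 6.39, 5.28 and 5.65 CPM in G9Gl and 60.2, 61.9 and 59.3 CPM in S1S2 (log2 fold change -3.39 with SE 0.0814, adjusted p = 1.78e-16). The summed level of 6 neuron markers was lower in G9Gl, at 19.7 to 26.9 CPM against 37.9 to 42.3 CPM, most of it from Tubb3 (21.7 ± 4.02 against 39.1 ± 2.51 CPM, not called), while Map2 was called higher (1.90, but not without S1S2 replicate 1 or 2, at 1.75 and 1.82), Rbfox3 had 0 counts throughout, and WT was at 24.9 to 27.1 CPM. Channels had 12 rises and 10 falls of 51 tested, with a median of -0.13. Cacna1c, the L-type calcium channel of heart and smooth muscle (1.51 ± 0.193 against 16.8 ± 0.332 CPM), and Kcnn4, a calcium-activated potassium channel (1.797 ± 0.342 against 14.8 ± 1.54 CPM), were among the falls.

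Epithelial genes also went both ways, with 6 rises and 3 falls of 24 tested. Pkp1, a desmosomal plaque protein, was at 28.9, 30.6 and 29.4 CPM in G9Gl and 0.230, 0.255 and 0.235 CPM in S1S2 (log2 fold change 6.91 with SE 0.0431, adjusted p = 1.21e-15), and Krt14, a basal keratin, was at least 31.1-fold higher in G9Gl. Krt8, a keratin of simple epithelia, was at 0.246, 0.287 and 0.131 CPM in G9Gl and 4.78, 4.12 and 5.13 CPM in S1S2 (log2 fold change -4.38 with SE 0.268, adjusted p = 2.70e-10, 21.97% of 75-base words shared), and Dsp, which links desmosomes to keratin, was at least 13.4-fold lower. Krt7, also of simple epithelia, rose (9.79 ± 0.325 against 2.21 ± 0.573 CPM). The summed level of 6 epithelial markers was 10.2 to 15.8 CPM in G9Gl and 24.5 to 28.5 CPM in S1S2, most of it from Krt19, with Krt18 at 0 counts in G9Gl, and its part in these results was not tested. Cadherins had 4 rises and 2 falls of 10 tested, including Cdh3 (129 ± 3.997 against 59.4 ± 2.00 CPM) and Cdh13 (23.1 ± 1.23 against 48.3 ± 2.38 CPM, whose value with chromosome medians removed was -0.92).

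Among metabolic genes, transporters were described first. Slc7a11, the cystine and glutamate exchanger, was at 75.1, 43.9 and 46.9 CPM in G9Gl and 1.06, 0.620 and 1.41 CPM in S1S2 (log2 fold change 5.79 with SE 0.404, adjusted p = 7.27e-11), and Slc2a3, a glucose transporter, at 41.2, 49.4 and 52.2 CPM in G9Gl and 2.07, 2.44 and 1.98 CPM in S1S2 (log2 fold change 4.44 with SE 0.137, adjusted p = 3.00e-15). S1S2 was lowest for both, below WT at 31.5 ± 9.50 and 14.4 ± 0.950 CPM. Of 24 tested glycolysis genes 5 rose and none fell, with a median of 0.03, and besides Slc2a3 they were Pfkp (1.06), Eno3 (1.51), Ldhb (6.32 ± 0.357 against 0.511 ± 0.00587 CPM, 12.6% of 75-base words shared) and the lactate exporter Slc16a3 (26.0 ± 4.16 against 5.89 ± 0.744 CPM), Pfkp and Eno3 being chosen after their values were seen. Slc4a4, a bicarbonate transporter, had 57.0, 58.2 and 60.1 CPM in G9Gl and 1.75, 1.13 and 1.22 CPM in S1S2 (log2 fold change 5.43 with SE 0.185, adjusted p = 3.70e-16). Over all 188 tested solute carriers, 22 (11.7%) rose and 8 (4.26%) fell, against 7.97% and 5.08% of all genes.

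Genes of serine and one-carbon metabolism and the amino acid stress response had 6 rises and no fall of 25 tested (median 0.58). Aldh1l2, a mitochondrial folate enzyme, was at 341, 228 and 247 CPM in G9Gl and 45.1, 44.3 and 91.5 CPM in S1S2 (log2 fold change 2.18 with SE 0.387, adjusted p = 1.92e-07), and Trib3, a target of the stress factor Atf4, at 150.3, 109 and 109 CPM in G9Gl and 28.8, 28.4 and 65.4 CPM in S1S2 (log2 fold change 1.60 with SE 0.426, adjusted p = 1.39e-05). S1S2 replicate 3 was the highest S1S2 library and G9Gl replicate 1 the highest G9Gl library for the 6 called genes, and the mutants still did not overlap. The number of rises was 9 without S1S2 replicate 3, 4 without G9Gl replicate 1, and 4 without S1S2 replicate 1 or 2. The hormone Fgf21, another target of the stress response, had 8.21, 5.46 and 5.42 CPM in G9Gl and 0.460, 1.09 and 2.54 CPM in S1S2, with a log2 fold change of 2.24 that became 2.97 without S1S2 replicate 3.

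Glutathione transferases and P450 enzymes formed contrasts of single genes. Gsta4, which conjugates lipid peroxidation products, was at 3.83, 4.202 and 4.31 CPM in G9Gl and 239.9, 242 and 234 CPM in S1S2 (log2 fold change -5.86 with SE 0.0532, adjusted p = 1.55e-19), with WT at 11.2 ± 1.17 CPM, and Gstm2 at 33.3, 33.3 and 29.1 CPM in G9Gl and 3.68, 3.10 and 3.81 CPM in S1S2 (log2 fold change 3.19 with SE 0.111, adjusted p = 6.11e-14). S1S2 was thus far above WT for Gsta4 and below it for Gstm2 (11.8 ± 1.09 CPM in WT). Of 17 tested transferases 5 rose and 3 fell. Cyp7a1, the rate-limiting enzyme of bile acid synthesis, had 0 counts in S1S2 and WT and 5.05, 3.63 and 4.50 CPM in G9Gl, a level at least 31.1-fold higher. Cyp1b1, which is induced by the aryl hydrocarbon receptor, was higher at a common level (76.2, 77.0 and 71.9 CPM in G9Gl and 15.3, 14.0 and 13.5 CPM in S1S2; log2 fold change 2.39 with SE 0.0597, adjusted p = 1.43e-15) and was chosen after its values were seen. Of 30 tested P450 and aldehyde dehydrogenase genes, 12 rose and 3 fell.

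Zinc finger genes of the Zfp name, most of which encode DNA-binding repressors, had 16 rises and 22 falls of 348 tested, 10.9% called beside 13.1% of all genes, with 6.32% falls beside 5.08%. The falls were gathered on chromosome 4, which held 12 of the 22, and none of the 22 tested Zfp genes there rose. These 12 are Zfp37, at 62189540 to 62231047, and 11 genes between 146156824 and 147702553 (GRCm38). Zfp981 was at 12.9, 14.0 and 13.1 CPM and Zfp978 at 11.8, 11.5 and 10.4 CPM in S1S2, with 0 counts in G9Gl, at least 124-fold and at least 104-fold lower. Zfp988 (at least 19.3-fold), Zfp982 (at least 11.9-fold), Zfp600 (at least 10.7-fold) and Zfp979 (at least 7.45-fold) were likewise at 0 counts in G9Gl. WT was at 0.291 ± 0.119 CPM for Zfp981, at 0.0317 ± 0.0322 CPM for Zfp988 and at 0.489 ± 0.112 CPM for Zfp979, and had 0 counts for Zfp978. Zfp982, Zfp600 and Zfp979 were chosen after their values were seen. The block holds near copies, with 66.4% of the 75-base words of Zfp978, 23.3% of Zfp981, 56.1% of Zfp988, 23.6% of Zfp979 and 74.5% of Zfp600 found in other genes, so counts of single members are uncertain. Rises among Zfp genes included Zfp518a (77.0 ± 1.73 against 18.4 ± 0.529 CPM) and Zfp760 (23.3 ± 2.09 against 6.04 ± 0.807 CPM), also chosen after their values were seen, beside Zfp422.

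Several large functions did not separate the mutants at the fold limit. No gene was called among 54 of DNA replication and mitosis (3 higher and 26 lower under the p limit alone, median -0.13) or among 59 tested histone genes (4 higher and 15 lower). Mki67, the proliferation antigen, was at 821, 815 and 887 CPM in G9Gl and 1089, 1107 and 1079 CPM in S1S2 (log2 fold change -0.38). Of 74 cytosolic ribosomal protein genes none was called, but 61 were lower and 1 higher in G9Gl without the fold limit, with a median of -0.26. For cholesterol synthesis the count was 1 fall of 31 tested, Hsd17b7 (-1.33), with 19 lower and 2 higher without the fold limit and a median of -0.36. Respiratory chain genes had 1 rise of 76, Cox6a2 (2.17, or 2.95 without S1S2 replicate 3, and not called without G9Gl replicate 1, S1S2 replicate 1 or S1S2 replicate 2), chosen after its values were seen.

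The remaining lists were smaller or mixed, and are set beside 7.97% of all genes called higher and 5.08% called lower. Near these shares were lineage markers (8.33% each way), rises of the IGF axis (6.67%) and falls of the Notch pathway (7.14%). Nrf2 targets had 3 rises and 3 falls of 25, tetraspanins and claudins 5 and 3 of 17, S100 genes 1 and 2 of 8, T-box genes 2 and 2 of 10, semaphorins and their receptors 4 and 3 of 25, secreted Wnt inhibitors, co-receptors and targets 4 and 3 of 25, small leucine-rich proteoglycans 3 and 2 of 10, aldo-keto reductases 4 and 0 of 10, keratins 2 and 1 of 7, the IGF axis 1 and 3 of 15, lineage markers of fat, bone and cartilage 1 and 1 of 12, the Crmp family 1 and 0 of 3, and the Notch pathway 3 and 1 of 14. Some of these small counts changed without 1 library or in other fits. Among the semaphorin falls, Sema4g missed the fold limit with chromosome medians removed (-0.937). The falls of S100 genes were 1 without any 1 of the G9Gl libraries or S1S2 replicate 1, without the filter on low counts or with chromosome medians removed. Those of small leucine-rich proteoglycans were 1 without any 1 of the G9Gl libraries, S1S2 replicate 1 or WT replicate 1, with only the 6 mutant libraries, with the replicate block or with thinned libraries. The rises of lineage markers were 2 without G9Gl replicate 1, WT replicate 1 or WT replicate 3, with DESeq2, with the replicate block, without the filter or with chromosome medians removed, and the rises of secreted Wnt genes were 2 without S1S2 replicate 3.

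For lists with no call in one direction, members at an unadjusted p under 0.05 in that direction and members called by DESeq2 were counted. The former were 3 of 21 sensors, 2 of 22 MHC class I genes, 0 of 17 prolactin and aldo-keto reductase genes, 3 of 16 serpins, 1 of 28 contractile genes, 5 of 24 glycolysis genes, 2 of 25 serine and stress genes, 5 of 11 X-linked germline genes, 25 of 76 respiratory chain genes and 0 of 10 aldo-keto reductases, all for falls. For rises they were 7 of 25 silencing partners, 3 of 29 Hox genes and 4 of 31 cholesterol genes. With no call in either direction, there were 7 rises and 29 falls among replication genes, 7 and 20 among histones, 1 and 68 among ribosomal protein genes, and 4 and 5 among demethylases. DESeq2 called none of these.

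Genes of chromosome 19 were lower as a whole in G9Gl, with a median log2 fold change of -0.52 over 487 genes, of which 19 rose and 54 fell. On the other chromosomes the medians lay between -0.14 and 0.19. The median of chromosome 19 was -0.17 for G9Gl and 0.34 for S1S2 relative to WT. The cause was not tested.

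The labelled cell type was checked against its markers. Fibroblast markers summed to 7840 to 8690 CPM in G9Gl and 7410 to 7470 CPM in S1S2, against 9920 to 11400 CPM in WT, and of 10 markers Col1a2, Col3a1, Prrx1 and Thy1 (38.3 ± 2.48 against 2.05 ± 0.272 CPM) were called higher in G9Gl. Vim went the other way (1250.4 ± 79.7 against 2399 ± 100.4 CPM, log2 fold change -0.94, adjusted p = 2.47e-10), short of the fold limit but past it with chromosome medians removed (-1.03). Twist1 (-0.67) and Fn1 (-0.21) were also lower on the log2 scale under the p limit alone. Col1a1, Fn1 and Vim were among the most abundant of the markers in each library. Macrophage or leukocyte markers summed to 4.67 to 4.96 CPM in G9Gl and 3.25 to 4.1 CPM in S1S2, mostly from Cd68. Pluripotent markers summed to 0.491 to 0.621 CPM in G9Gl and 0.094 to 0.291 CPM in S1S2, mostly from Nanog. Neither Cd68 nor Nanog was called, and the part of these sums in the results was not tested. Endothelial markers summed to 0.791 to 2.35 CPM in G9Gl and 1.55 to 1.75 CPM in S1S2, with Cdh5 called higher and Kdr lower. Adgre1, Pou5f1 and Zfp42 had 0 counts throughout. The sums of epithelial, neuron, muscle and trophoblast markers are given above.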

How the data were processed

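Total RNA was made into ribosomal RNA-depleted, stranded libraries (TruSeq Stranded Total RNA Gold) and sequenced as 75-base read pairs, per the study's methods. Per the labels and methods, the authors aligned reads to GRCm38 with STAR 2.5.2b and deposited whole-number read counts per gene, not normalized, for 9 libraries in 1 table of 47937 genes. The annotation release and the strand setting of the counting are not given in the sources used here. Repeats were not analysed here. Of the genes, 47310 were matched to GENCODE M21.

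From the deposited counts, genes were filtered with filterByExpr, scaled by TMM and fitted in R 4.3.3 with edgeR 4.0.16 (glmQLFit and glmQLFTest) over the 9 libraries, 1 coefficient per genotype, and G9Gl was contrasted with S1S2. P-values are two-sided and adjusted over all 15540 genes tested. The SE of a log2 fold change was taken from the spread of log2 CPM (prior count of 2) within genotypes. Library totals were 21319778 to 32157623 counts, and the floor of 3 counts (0.0923 to 0.141 CPM) covers counting error only. No 2 libraries of a genotype differed by as little as sampling noise (chi-square per degree of freedom of at least 2.57).

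The members and the 56 gene lists were chosen with earlier results of these data known. Named genes were the 6 KMT genes, the 5 largest called rises and falls where normalized counts averaged over 100, up to 3 rises and 3 falls per list among called members with a mean over 20 in the mutants and no overlap, small lists in full, the most abundant members of lists with few calls, and cell type markers. Other genes are marked as chosen after their values were seen. Shared 75-base words were counted over GENCODE M21 transcripts. DESeq2 1.42.0, other filters and scalings, a replicate block, thinning to the smallest library, removal of chromosome medians and leaving out each library were tried. The fitting script was tested on simulated counts.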

Additional observations from a re-analysis of the deposited data

How the results depend on the processing

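The number of genes called stayed within 1.5 times 2028 and the share of rises between 60.6% and 62.2% with DESeq2, with other scalings, without the filter, with only the 6 mutant libraries, with thinned libraries, with chromosome medians removed and without each library in turn. Without 1 library, 1981 to 2166 genes were called, 1222 to 1325 higher and 753 to 841 lower. The numbers moved by more in these alternatives. With at least 10 counts in every library, 962 genes were called (580 higher and 382 lower of 13037 tested), and with a mean normalized count over 100, 804 (515 and 289 of 10848), since fewer genes were tested. Under each of these filters 55 of the list counts moved by over 1.5 times and 57 did not. Testing against a fold change of 2 with glmTreat left 1341 (856 and 485), with 32 list counts moved and 61 named genes no longer called. With an adjusted p of at most 0.05 and no fold limit there were 8288 (4173 and 4115), rises made up 50.3%, and 83 list counts moved. The counts of list members thus depend on the filter, the fold limit and the p limit. Among the other fits, 1 list count moved with DESeq2, 4 without the filter, 3 with only the 6 mutant libraries, 3 with the replicate block, 2 with thinned libraries and 6 with chromosome medians removed. Genes with few or no counts in 1 mutant, which make up much of the large differences, are limited by depth. With the replicate number as a block, 2022 genes were called, of which 2005 were shared with the fit without it. Deviations from the genotype means of same-numbered libraries had correlations of -0.0686, -0.0269 and -0.0673. The largest correlation between a G9Gl and an S1S2 library was 0.0714, for G9Gl replicate 1 and S1S2 replicate 3. With so few libraries, these values cannot decide whether any of them share a culture day or batch.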
